A study of Mus musculus with 22 samples.

Results

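Peroxiredoxins, glutathione peroxidases and superoxide dismutases are enzymes that remove reactive oxygen species. The 10 genes described here, Prdx1 to Prdx6, Gpx1, Gpx4, Sod1 and Sod2, were taken by symbol, as a set chosen with earlier results of these data known, and all 10 were found among the 12596 genes measured. RNA sequencing covered 22 mouse libraries, 2 for each of 11 animal numbers in the sample titles. One library of each pair was immunoprecipitated (IP) and the other is the RNA before immunoprecipitation (input). All mice had a C57Bl/6 background and carried 2 transgenes by cross. One drives Cre from the Th promoter (line B6.Cg-7630403G23RikTg(Th-cre)1Tmd/J), and the other is Tg(Slc6a2-eGFP/Rpl10a)JD1538Htz, from a B6;FVB stock. The latter puts an eGFP tag on the ribosomal protein Rpl10a under control of the noradrenaline transporter gene, so that ribosomes of noradrenergic cells can be pulled down with the RNA on them. The labels give the infused agent as hTyr, human tyrosinase, a pigment enzyme whose product resembles neuromelanin, for 5 animals, and as EYFP, a yellow fluorescent protein, for 6 control animals. The groups are hTyr IP (n = 5), EYFP IP (n = 6), hTyr input (n = 5) and EYFP input (n = 6). IP libraries are labelled noradrenergic and input libraries total hindbrain. Age, sex and time after infusion are not given in the sources used here.

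Superoxide leaks from mitochondrial electron transport and arises when catecholamines oxidise. Superoxide dismutases turn it into hydrogen peroxide, with Sod1 acting mainly in the cytosol and Sod2 in the mitochondrial matrix. Peroxiredoxins reduce peroxides through a reactive cysteine that most of them restore with thioredoxin, and glutathione peroxidases do so with a selenocysteine and glutathione. Prdx1, Prdx2 and Prdx6 are mainly cytosolic, Prdx3 is mitochondrial, Prdx4 sits in the endoplasmic reticulum and Prdx5 is found in mitochondria, peroxisomes and cytosol. Gpx1 reduces soluble peroxides, and Gpx4 reduces lipid peroxides within membranes and is an enzyme that holds back ferroptosis. Neurons of the locus coeruleus, the main noradrenergic nucleus of the brain, make noradrenaline and accumulate neuromelanin in people.

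Levels are given as log2 CPM, reads scaled to a common library size on a log2 scale, as the authors deposited them. A difference of 1 on this scale is a doubling. Differences were tested with limma over all genes, and a gene passed when its p-value, adjusted by the Benjamini-Hochberg method over all 12596 genes, was under 0.05. Adjusted p-values below come from this fit unless another setting is named. Between hTyr and EYFP, within IP or within input, the p-values measure the spread between these animals. In IP against input and in the interaction, the 2 libraries of an animal entered this fit unpaired. The p-values there measure the spread between libraries of a group, and a fit with the animal as a block is an alternative. Depth ran from 12654489 to 25100142 reads per library, and each of the 10 genes had between 244 and 12157 reads in a library, Prdx4 the fewest.

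The IP libraries held more RNA of the labelled cell type than input did. Of 15 noradrenergic marker genes, 14 passed as higher in IP in each treatment, among them Dbh, which makes noradrenaline, with a log2 change of 4.02 in EYFP and 4.30 in hTyr animals. Summed over the 15 markers, IP libraries ranged from 857 to 2517 CPM and input libraries from 363 to 424 CPM. Markers of other cells were not absent from IP. The 9 oligodendrocyte markers summed to between 5966 and 8278 CPM in IP and between 6381 and 8988 CPM in input, and the 8 astrocyte markers to between 1144 and 1768 CPM in IP and between 1149 and 1450 CPM in input. In EYFP animals 8 of 10 markers of other neurons passed as higher in IP, with a list median of 0.48, and in hTyr animals 7 of 10 did, with a median of 0.57. Of the 8 astrocyte markers, 3 passed as higher and 1 as lower in EYFP animals (median 0.13), and 4 and 2 did in hTyr animals (median 0.26). Of 6 endothelial markers, 1 and 3 passed as higher and 0 as lower (medians 0.24 and 0.49). With the glial score, the mean log2 level of oligodendrocyte, astrocyte and microglia markers, as a covariate, Prdx1 to Prdx4 passed as higher in IP in both treatments, Prdx1 at 0.82 and 0.95 and Prdx4 at 0.61 and 0.71. In EYFP animals the astrocyte markers had a mean log2 level of 6.89 in IP and 6.73 in input. The oligodendrocyte markers had 8.55 in IP and 8.62 in input. The glial score pools lists that moved in opposite directions, so this fit cannot remove the share of a single glial type. The part of RNA from astrocytes, other neurons and endothelial cells in the values below was not tested. In such bulk samples, fewer cells of a type and less RNA per cell cannot be told apart.

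The genes lie on 9 chromosomes (GENCODE, mouse build GRCm38, the build called mm10 in the submitters' processing notes). Prdx1 spans chr4:116685544-116700822 on the plus strand, and the principal transcript has 6 exons. Prdx2 spans chr8:84969587-84974834 on the plus strand, Prdx3 chr19:60864051-60874556 on the minus strand and Prdx4 chrX:155323918-155340754 on the minus strand. Prdx5 spans chr19:6906697-6910106 and Prdx6 chr1:161240112-161251219, both on the minus strand. Gpx1 spans chr9:108338903-108340343, with 2 exons, Gpx4 chr10:80047166-80056439, Sod1 chr16:90220754-90226329 and Sod2 chr17:13006846-13040063, all on the plus strand. Exons of Prdx2 overlap those of Junb and Rnaseh2a on the opposite strand, and exons of Prdx5 overlap those of Trmt112. The strand setting of the read counting is not given in the sources used here, so reads of these overlaps may belong to either gene. By gene name, Prdx2, Prdx6 and Gpx4 have copies in the annotation (Prdx2-rs3, Prdx6-ps2, Prdx6b and Gpx4-ps2), of which 0 are in the table. Reads shared with them would make these 3 genes less certain. Copies under other names were not searched for, so the other genes may have some as well.

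Genes of this family are known targets of Nrf2, a transcription factor that binds the antioxidant response element. The core of that element, TGACNNNGC, was searched on both strands of RefSeq promoter windows (GRCm38.p6, 250 bases before to 50 after a transcript start), which exist for 9 of the 10 genes in 12 entries. It was found in the windows of Prdx1 and Sod1, and it is present in 12.4% of 32851 promoter windows of all genes and in 14.1% of the 12446 windows of genes in the table. Both matches read as the core on the minus strand. Positions are counted from the RefSeq starts, which differ from the GENCODE gene starts given above. The match lies 133 to 125 bases before the start of Prdx1 and 56 to 48 bases before that of Sod1. The stretches around them are shown, because these 2 genes of the set share the match and, as described below, differed in their IP values. They are chr4:116685430-116685510 for Prdx1 and chr16:90220670-90220750 for Sod1, both printed on the plus strand with the match in capitals.
Prdx1: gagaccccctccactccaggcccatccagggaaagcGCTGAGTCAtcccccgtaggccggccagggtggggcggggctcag
Sod1: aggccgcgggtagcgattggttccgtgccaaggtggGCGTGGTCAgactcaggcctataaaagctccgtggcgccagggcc
A match is a description of these letters only.

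The first question is how high each gene was, which needs levels per length of transcript. On the scale of CPM per kilobase of the principal transcript, Sod1 was highest in EYFP IP at 574 ± 56.3 (SD, n = 6). Prdx5 came next at 357 ± 30.5, followed by Prdx2 at 264 ± 23.2 and Gpx4 at 241 ± 28.5, and the libraries of Prdx2 and Gpx4 overlapped. Prdx1 at 137 ± 19.7, Gpx1 at 124 ± 8.55, Prdx6 at 110 ± 12 and Prdx3 at 97.3 ± 10.7 formed a run in which each overlapped the next. Sod2 at 33.3 ± 1.86 and Prdx4 at 26.5 ± 6.55 were lowest and also overlapped. The cytosolic dismutase thus stood far above the mitochondrial one on this scale. The order depends on the length used. With all annotated exons of a gene as the length, Prdx5 came first and Sod1 was 6th at 92.7 CPM per kilobase. In EYFP input, Prdx1 was 7th at 76.7 ± 7.10 and Gpx1 5th at 127 ± 2.59 (SD, n = 6), and the top of the order, Sod1 above Prdx5, was that of IP.

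**Figure D1:**
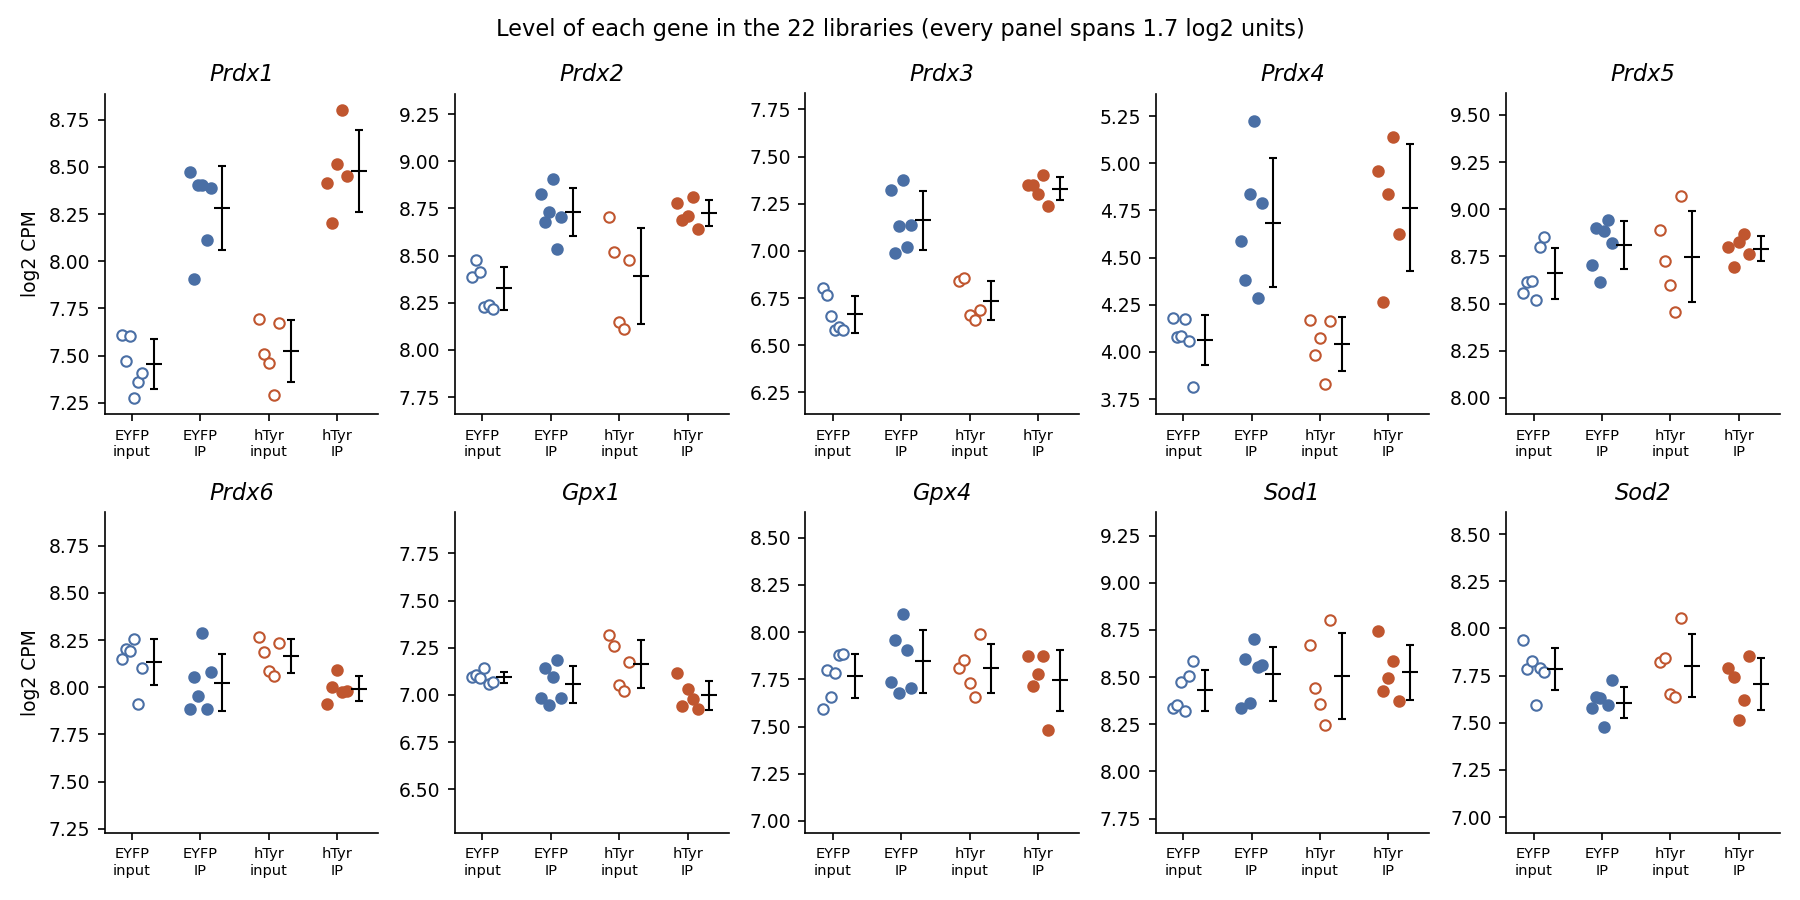
Level of each of the 10 genes in log2 CPM (y axis) in the 4 groups of libraries (x axis), 1 point per library, with the mean and SD beside the points. The filled IP points of Prdx1, Prdx3 and Prdx4 lie above the open input points in both treatments. Those of the other genes overlap input in at least 1 treatment. The share of all genes without overlap was not counted, so this is a description of the points only.

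IP against input asks which of the enzymes' RNAs the pull-down of tagged ribosomes held at another level than the whole tissue. Prdx1, Prdx2, Prdx3 and Prdx4 rose in IP in both treatments, and Prdx5, Prdx6, Gpx1, Gpx4 and Sod1 did not pass the test in either. Sod2 fell in IP in EYFP animals. In EYFP animals 4 of the 10 genes passed as higher in IP, where 28.5% of all genes did so, and 1 of 10 passed as lower, where 28.1% of all genes did. In hTyr animals 4 of 10 passed as higher, against 27.4% of all genes, and 0 of 10 as lower, against 27% of all genes. The median log2 change of the 10 genes was 0.12 in EYFP and 0.03 in hTyr animals, beside -0.03 and -0.04 over all genes, so the 10 genes as a list were close to the background.

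Prdx1, a cytosolic peroxiredoxin, had the widest gap on the deposited values. In EYFP input its level ran from 7.28 over a median of 7.44 to 7.61 log2 CPM, and in EYFP IP from 7.90 over 8.39 to 8.47. In hTyr input the 5 libraries had 7.29, 7.46, 7.51, 7.67 and 7.69, and in hTyr IP 8.21, 8.42, 8.45, 8.52 and 8.80. Every IP library was above every input library. The log2 change was 0.83 (SE 0.0958, adjusted p = 4.62e-06) in EYFP animals, a 1.77-fold rise, and 0.95 (SE 0.106, adjusted p = 1.56e-06) in hTyr animals, a 1.94-fold rise. Of all genes, 5.40% had a larger rise in EYFP and 6.08% in hTyr animals. Within single animals the difference was positive in 11 of 11 and ranged from 0.43 to 1.51, the highest being an hTyr animal. Once the dependence of the values on transcript length and GC content was removed in every library, the values were 0.60 in EYFP and 0.62 in hTyr animals, both past the threshold (adjusted p = 1.40e-05 and 0.000203). Prdx4 then stood at 0.61 and 0.75, so which of the 2 genes rose more depends on this choice, and their difference was not tested. Over the 11 IP libraries Prdx1 and the glial score had a Pearson's r of 0.61 (permutation p = 0.0442, 0.364 after Benjamini-Hochberg adjustment over 20 relations).

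Prdx4, the peroxiredoxin of the secretory pathway and the least abundant of the 10 genes, had the next largest rise on the deposited values and the widest spread in IP. Its EYFP input libraries ran from 3.81 over a median of 4.08 to 4.18 log2 CPM and its EYFP IP libraries from 4.29 over 4.69 to 5.22. In hTyr animals input libraries had 3.83, 3.98, 4.07, 4.16 and 4.17, and IP libraries 4.27, 4.62, 4.84, 4.96 and 5.14. No IP library reached down to the input libraries, but the IP libraries of a group differed among themselves by nearly a full log2 unit. The rise was 0.62 (SE 0.132, adjusted p = 0.000846) in EYFP and 0.72 (SE 0.142, adjusted p = 0.000417) in hTyr animals, or 1.54-fold and 1.65-fold. All 11 animals had a higher level in IP, by 0.23 to 1.31. Each of the 10 genes was set against the glial and the noradrenergic score over the 11 IP libraries, and 0 of these 20 relations passed after Benjamini-Hochberg adjustment. For Prdx4 and the glial score Pearson's r was 0.68 (permutation p = 0.0260, adjusted 0.364) and Spearman's rho 0.67 (permutation p = 0.0280, adjusted 0.273). For Prdx5 and the noradrenergic score rho was -0.74, with the lowest permutation p of the 20, 0.0127 (adjusted 0.254), and r was -0.46 (permutation p = 0.157). For Prdx4 and the glial score r was 0.44 without the 2 libraries farthest from the median score and 0.95 within the 6 EYFP IP libraries.

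Prdx3 is the peroxiredoxin of the mitochondrial matrix. Its level in EYFP input ran from 6.58 over a median of 6.63 to 6.80 log2 CPM, and in EYFP IP from 6.99 over 7.13 to 7.37. The hTyr input libraries had 6.63, 6.66, 6.69, 6.84 and 6.85 and the hTyr IP libraries 7.24, 7.30, 7.35, 7.35 and 7.40. IP and input did not overlap, and the 5 hTyr IP libraries lay within a narrow band. The rise was 0.50 (SE 0.0761, adjusted p = 5.22e-05) in EYFP and 0.59 (SE 0.0766, adjusted p = 7.63e-06) in hTyr animals, 1.41-fold and 1.51-fold. It was seen in 11 of 11 animals, from 0.22 to 0.79.

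Prdx2, a cytosolic peroxiredoxin known to be abundant in neurons, rose less. Its EYFP input libraries ran from 8.22 over a median of 8.31 to 8.47 log2 CPM and its EYFP IP libraries from 8.54 over 8.72 to 8.91, with no overlap. In hTyr animals input libraries had 8.11, 8.15, 8.48, 8.52 and 8.71 and IP libraries 8.64, 8.69, 8.71, 8.78 and 8.81, so that 1 input library lay among the IP libraries. The rise was 0.40 (SE 0.0734, adjusted p = 0.000233) in EYFP and 0.33 (SE 0.105, adjusted p = 0.0132) in hTyr animals, 1.32-fold and 1.26-fold. The hTyr input libraries were the most scattered group of this gene, with an SD of 0.26, while their IP libraries had an SD of 0.07. The hTyr call was lost without the animal of IP_508 and Pre_508 (0.28, adjusted p = 0.0614), without that of IP_509 and Pre_509 (0.24, adjusted p = 0.0766) and with total reads as a covariate (0.38, adjusted p = 0.102). In hTyr animals IP libraries had 12654489 to 19043798 reads and input libraries 18771136 to 25100142. The fit with total reads can therefore hardly separate depth from fraction. The difference within an animal was positive in all 11, from 0.07 to 0.70.

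**Figure D2:**
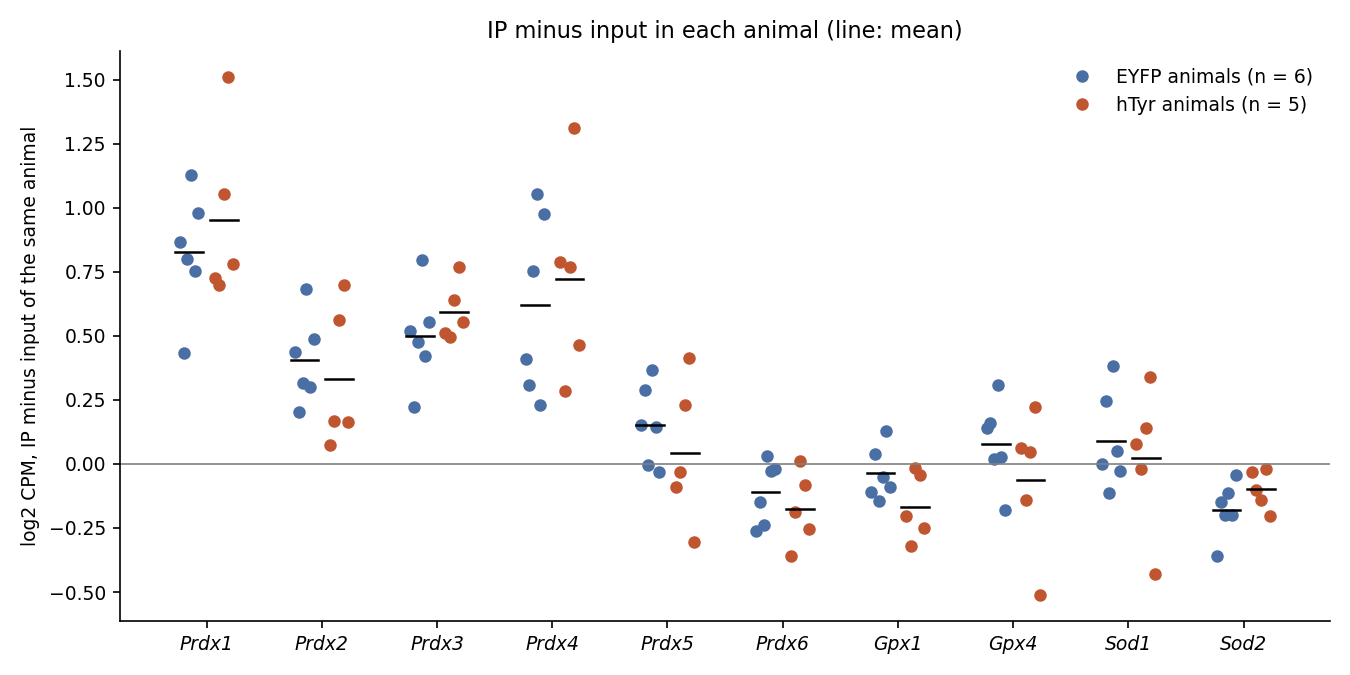
IP minus input log2 CPM of each animal (y axis) for the 10 genes (x axis), 1 point per animal, with a line at the mean of the 6 EYFP or 5 hTyr animals. All points of Prdx1 to Prdx4 lie above 0 and all points of Sod2 below 0, while those of the other 5 genes lie on both sides.

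Prdx5 and Prdx6 did not share the rise. Prdx5, whose protein is the peroxiredoxin with the widest spread over organelles, ran from 8.52 to 8.85 log2 CPM in EYFP input and from 8.62 to 8.94 in EYFP IP, and its change was 0.15 (SE 0.0774, adjusted p = 0.103). With the animal as a block it passed narrowly in EYFP animals (0.15, adjusted p = 0.0497), as it did with the length and GC trend removed (0.21, adjusted p = 0.00799). In hTyr animals the change was 0.04 (adjusted p = 0.739), or 0.19 with the length and GC trend removed (adjusted p = 0.0520, and 0.0170 with the animal as a block as well). Over both treatments IP was the higher library in 6 of 11 animals. Prdx6 reduces phospholipid peroxides, uses glutathione where the others use thioredoxin, and is known as an astrocyte-rich member of the family. Its EYFP libraries ran from 7.91 to 8.25 in input and from 7.88 to 8.29 in IP, with a change of -0.11 (SE 0.0789, adjusted p = 0.240). In hTyr animals the change was -0.17 (SE 0.0751, adjusted p = 0.0590), and IP was the lower library in 9 of 11 animals. With the length and GC trend removed, Prdx6 passed as lower in both treatments, at -0.18 (adjusted p = 0.0388) and -0.29 (adjusted p = 0.00260). In hTyr animals it also passed with quantile normalization (-0.18, adjusted p = 0.0445), with median centring (-0.24, adjusted p = 0.0145) and without the animal of IP_508 (-0.22, adjusted p = 0.0483).

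The glutathione peroxidases lay close to input. Gpx1 ran from 7.06 to 7.14 log2 CPM in EYFP input, the tightest group of any gene here with an SD of 0.03, and from 6.95 to 7.19 in EYFP IP, a change of -0.04 (adjusted p = 0.602). In hTyr animals its change was -0.17 (adjusted p = 0.0919), and IP was lower in 5 of 5 of them. It passed there with median centring (-0.24, adjusted p = 0.0252), quantile normalization (-0.19, adjusted p = 0.0483) and a spread shared over all libraries (-0.17, adjusted p = 0.0361). With the length and GC trend removed it was -0.03 (adjusted p = 0.689). Gpx4 ran from 7.59 to 7.89 in EYFP input and from 7.68 to 8.09 in EYFP IP. Its change was 0.08 (adjusted p = 0.425) in EYFP and -0.06 (adjusted p = 0.577) in hTyr animals, and 1 hTyr animal, that of IP_510, had 7.48 in IP against 7.99 in its input. The 95% intervals of Gpx4 ran from -0.09 to 0.25 in EYFP and from -0.26 to 0.13 in hTyr animals. The hTyr value turned positive with the length and GC trend removed (0.11, adjusted p = 0.243) and without the animal of IP_510 (0.05, adjusted p = 0.657). In EYFP animals Gpx4 passed as higher with that trend removed and the animal as a block (0.14, adjusted p = 0.0343).

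Of the 2 dismutases, Sod2 passed in EYFP animals and Sod1 in neither treatment. Sod1 ran from 8.32 to 8.59 log2 CPM in EYFP input and from 8.33 to 8.70 in EYFP IP, a change of 0.09 (adjusted p = 0.330), and its hTyr change was 0.02 (adjusted p = 0.880). Sod2, which works beside Prdx3 in the mitochondrial matrix, ran from 7.59 over a median of 7.79 to 7.94 in EYFP input and from 7.48 over 7.61 to 7.73 in EYFP IP. In hTyr animals its input libraries had 7.64, 7.65, 7.82, 7.85 and 8.05 and its IP libraries 7.51, 7.62, 7.74, 7.79 and 7.85. IP and input overlapped in both treatments, yet within each of the 11 animals IP was the lower library, by 0.02 to 0.36. Sod2 fell by 0.18 (SE 0.0653, adjusted p = 0.0284) in EYFP animals, and its hTyr value of -0.10 did not pass (adjusted p = 0.385). The EYFP call was lost without the animal of IP_504 (-0.14, adjusted p = 0.108), IP_506 (-0.17, adjusted p = 0.0767) or IP_511 (-0.17, adjusted p = 0.0685) and with total reads as a covariate (-0.16, adjusted p = 0.0868). Sod2 has a long transcript, of 5861 bases, and with the length and GC trend removed its values were -0.51 in EYFP and -0.58 in hTyr animals, both past the threshold.

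**Figure D3:**
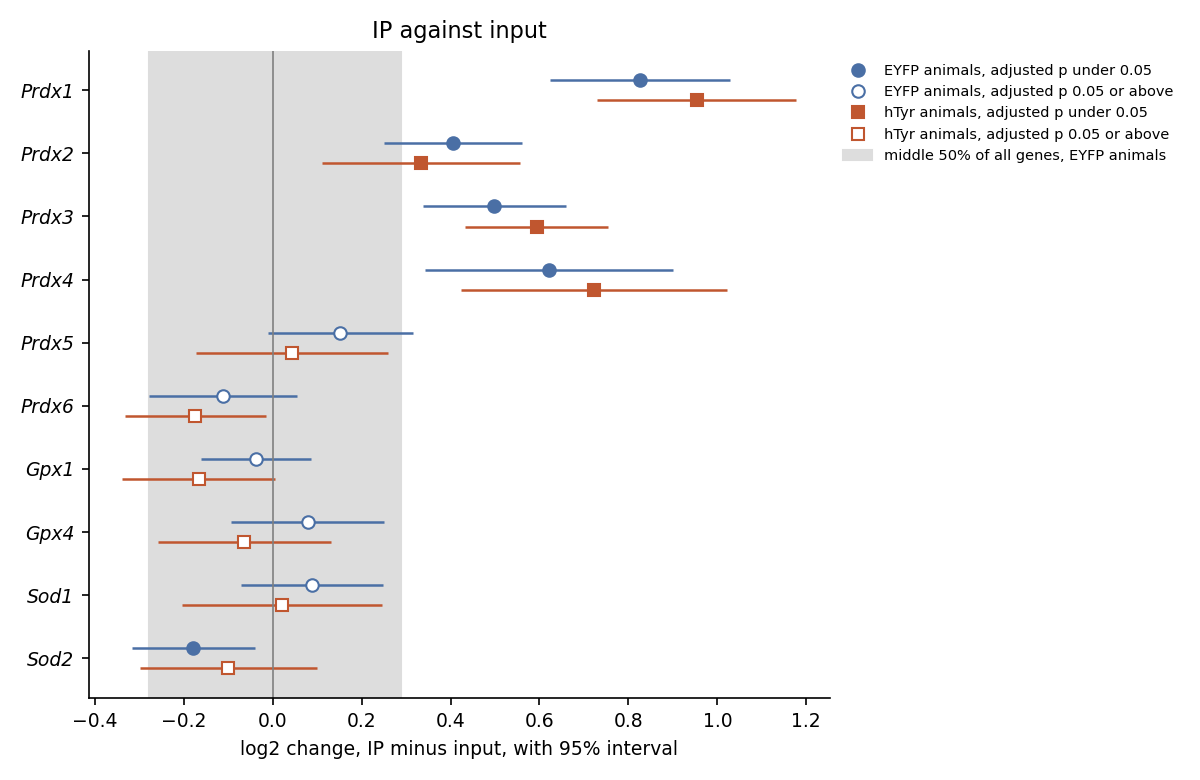
Log2 change, IP minus input, with its 95% interval (x axis) for the 10 genes (y axis) in EYFP animals (circles) and hTyr animals (squares); filled symbols passed the adjusted p of 0.05, and the grey band holds the middle 50% of all genes in EYFP animals, from -0.28 to 0.29. In EYFP animals Prdx1 to Prdx4 lie above the band and the other 6 genes within it; in hTyr animals 25.2% of all genes had a larger rise than Prdx2, which puts it just inside the middle 50% of that comparison.

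hTyr against EYFP asks whether infusion of tyrosinase went with another level of these enzymes, in the IP and in the input libraries. None of the 10 genes passed in IP with limma (0 of 10, where 0.0556% of all genes passed), and 0 had an unadjusted p under 0.05. With voom, limma's test on read counts, 0 passed as well. In input 0 of 10 passed, where 0.00794% of all genes did, and 0 had an unadjusted p under 0.05. The libraries of hTyr and EYFP animals overlapped for each of the 10 genes in both kinds of library. How often this holds over all genes was not counted.

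In IP, Prdx1 had the largest value, with a mean of 8.48 ± 0.22 log2 CPM over the hTyr libraries (SD, n = 5) against 8.28 ± 0.22 over the EYFP libraries (SD, n = 6). Its difference was 0.20, with a 95% interval from -0.05 to 0.44 (adjusted p = 0.835). Prdx3 had 7.33 ± 0.06 in hTyr and 7.16 ± 0.16 in EYFP, a difference of 0.17, with an interval from -0.01 to 0.34 and the lowest adjusted p of the 10 genes, 0.805. The interval of Prdx1 thus holds values from a slight fall to a rise of 0.44 on the log2 scale, and a p that misses the threshold does not show that the levels were alike. Sod2 differed by 0.10 (interval from -0.07 to 0.26), Prdx4 by 0.08 (from -0.28 to 0.44) and Gpx4, the lipid peroxidase tied to ferroptosis, by -0.10 (from -0.31 to 0.10). Prdx2, Prdx5, Prdx6, Gpx1 and Sod1 lay between -0.06 and 0.01. Prdx4 had the widest interval of the 10 genes. The noradrenergic markers had a median difference of 0.21 between hTyr and EYFP in IP, with 0 of 15 past the threshold, and with the noradrenergic score as a covariate Prdx1 differed by 0.20 and Prdx3 by 0.14, neither past the threshold (adjusted p = 0.998 for both).

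In input, the differences ran from -0.02 for Prdx4 to 0.09 for Prdx5, and 9 of 10 were positive. Prdx4 was positive too with quantile normalization or median centring. These moved the median of all genes in input from -0.009 to 0.008 and 0.018. Gpx4 turned negative with the length and GC trend removed. Prdx2, Prdx6, Gpx4, Sod1 and Sod2 did so in some fits that left out an animal. The lowest adjusted p of the 10 genes in input was 0.990. Of the 15 noradrenergic markers, 1 passed as lower in input, Slc6a2, at -0.91 (adjusted p = 0.0339). Slc6a2 is the noradrenaline transporter gene, under whose control the ribosome tag is made. Its difference in IP was -0.39 (adjusted p = 0.854).

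**Figure D4:**
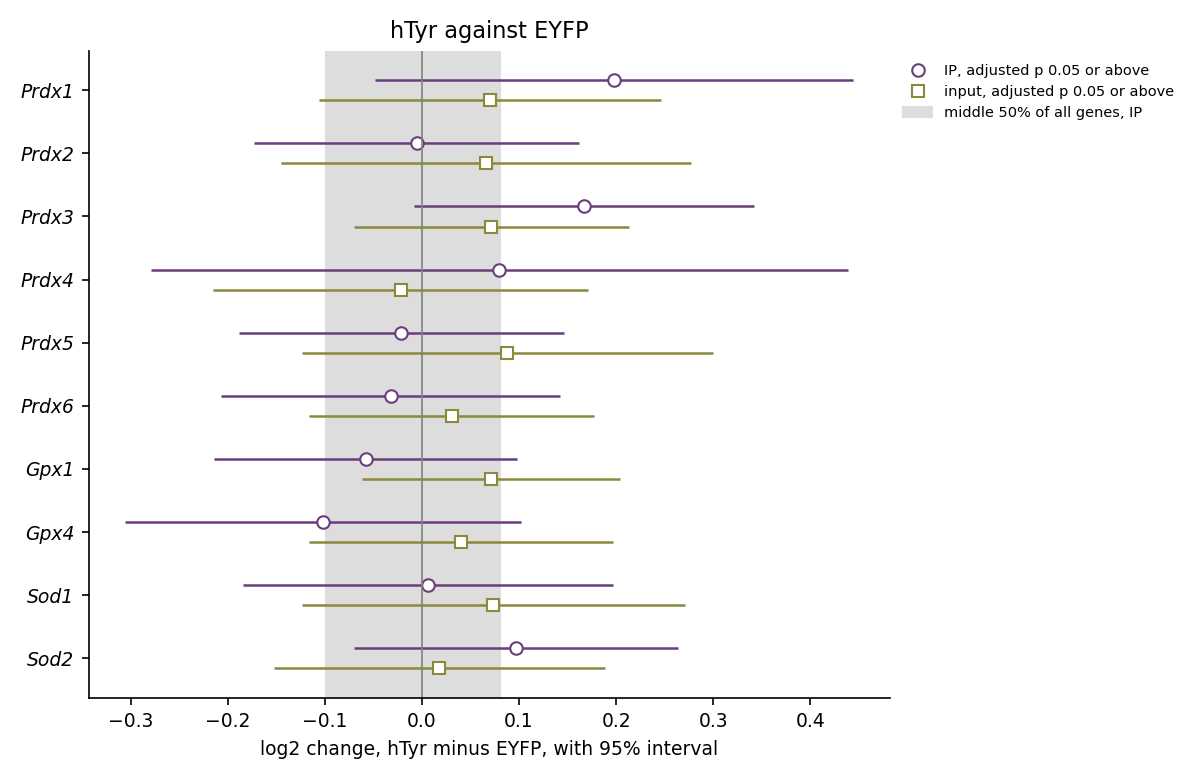
Log2 change, hTyr minus EYFP, with its 95% interval (x axis) for the 10 genes (y axis) in IP (circles) and input (squares); the grey band holds the middle 50% of all genes in IP, from -0.10 to 0.08. Every interval includes 0, and Prdx1 and Prdx3 in IP lie farthest to the right, at 0.20 and 0.17.

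Whether hTyr animals differed from EYFP animals more in IP than in input was tested as an interaction, since a gene that passes in 1 treatment and misses in the other is not thereby shown to differ. None of the 10 genes passed with limma (0 of 10, where 0.00794% of all genes passed), and 0 had an unadjusted p under 0.05 in limma or voom. Values ran from -0.14 for Gpx4 to 0.13 for Prdx1, with a lowest adjusted p of 0.996. For Sod2, which passed in EYFP animals and missed in hTyr animals, the difference was 0.08, with an interval from -0.15 to 0.31.

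The enzymes depend on a supply of reducing power, and 57 further genes of these systems were examined, of which 51 are in the table, 1 of them (Selenop) under its older symbol Sepp1. In EYFP animals 18 passed as higher in IP, 10 as lower and 23 did not pass, with a median log2 change of 0.12 beside -0.03 over all genes. Of all genes 28.5% were higher and 28.1% lower there, and 27.4% and 27% in hTyr animals. In hTyr animals 19 were higher, 6 lower and 26 did not pass, with a median of 0.15. Between hTyr and EYFP 0 of 51 passed with limma in IP, in input and as an interaction, and voom also gave 0 in each. With limma, 4, 1 and 3 of the 51 had an unadjusted p under 0.05, beside 780, 382 and 417 of all 12596 genes.

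Genes that supply NADPH, the electron donor for thioredoxin and glutathione reductases, had 6 of 8 members higher and 0 lower in EYFP animals, where 28.5% of all genes were higher, and 7 of 8 higher and 0 lower in hTyr animals, where 27.4% were. Their median log2 change was 0.34 and 0.35 in the 2 treatments. Idh1, the cytosolic isocitrate dehydrogenase that makes NADPH, rose by 0.96 (adjusted p = 9.13e-07) and 1.17 (adjusted p = 2.58e-08) in the 2 treatments. Pgd, of the pentose phosphate pathway, rose by 0.93 in EYFP (adjusted p = 1.87e-06) and 0.89 in hTyr animals (adjusted p = 2.34e-07). Of other peroxide and superoxide enzymes, 3 of the 5 in the table rose in EYFP and 2 of 5 in hTyr animals, with medians of 0.50 and 0.25. Gpx3, the secreted glutathione peroxidase, rose by 1.28 (adjusted p = 9.25e-07) and 1.67 (adjusted p = 5.43e-06), beside the values of Gpx1 and Gpx4 given above, which did not pass. Cat, the peroxisomal catalase, rose by 0.71 in EYFP (adjusted p = 1.58e-05) and 0.92 in hTyr animals (adjusted p = 7.05e-06).

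In the thioredoxin system, which recharges most peroxiredoxins, 4 of 10 genes were higher and 2 lower in EYFP animals, and 3 higher and 1 lower in hTyr animals, with medians of 0.13 and 0.17. For this and the next lists, 28.5% of all genes were higher and 28.1% lower in EYFP animals. In hTyr animals 27.4% and 27% were. Txnl1, a thioredoxin-like protein bound to the proteasome, rose by 0.73 (adjusted p = 1.25e-06) and 0.94 (adjusted p = 4.15e-07). In the glutathione system 4 of 15 were higher and 2 lower in EYFP, and 5 higher and 3 lower in hTyr animals, with medians of 0.05 and 0.13. The glutaredoxin gene Glrx fell by 0.38 (adjusted p = 0.000272) in EYFP and by 0.43 (adjusted p = 0.000317) in hTyr animals, and Glrx2 fell by 0.30 (adjusted p = 0.00241) and 0.40 (adjusted p = 0.000714). Glrx5 fell by 0.37 in hTyr animals (adjusted p = 0.00162), and its EYFP value was -0.18 (adjusted p = 0.194). Genes that supply selenium or build selenoproteins, on which Gpx1 and Gpx4 rely, had 1 of 9 members higher and 5 lower in EYFP animals, where 28.1% of all genes were lower, with a median of -0.25. In hTyr animals 2 of 9 were higher and 2 lower, where 27% of all genes were lower, with a median of -0.23. Sepp1, the selenium carrier selenoprotein P, fell by 0.57 (adjusted p = 0.000195) and 0.58 (adjusted p = 0.00147), and its receptor Lrp8 fell by 0.40 (adjusted p = 0.00136) and 0.34 (adjusted p = 0.0478). Of 4 methionine sulfoxide reductases, 1 passed as lower in EYFP animals, Msrb3 at -0.40 (adjusted p = 0.0118), and 0 in hTyr animals. The hTyr value of Msrb3 was -0.47 (SE 0.241, adjusted p = 0.109).

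**Figure D5:**
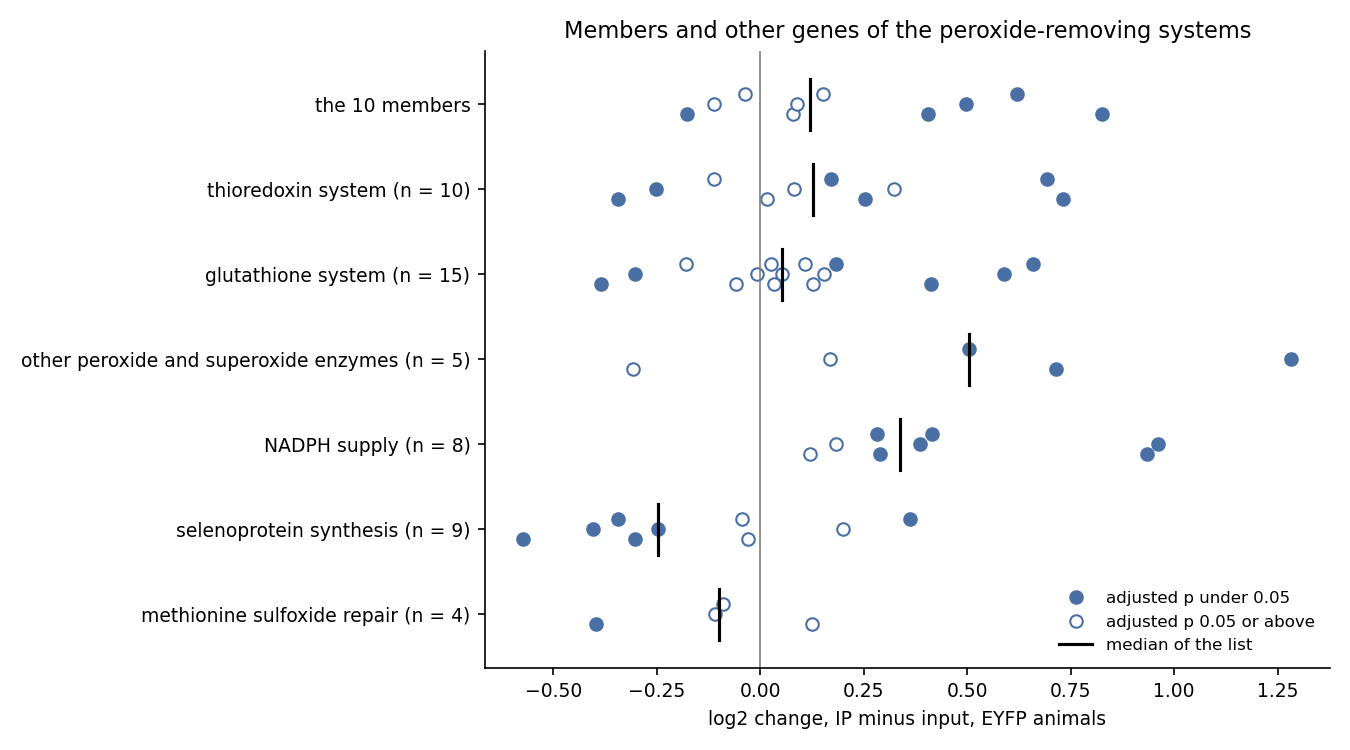
Log2 change, IP minus input, in EYFP animals (x axis) for the 10 genes and 6 lists of related genes (y axis), 1 point per gene, filled where the adjusted p was under 0.05, with a line at each list's median. All 8 NADPH genes lie above 0, and the selenoprotein synthesis list has its median at -0.25.

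Likeness of pattern was measured as the root mean square difference between 2 genes' log2 levels, each centred on its own mean, over the 22 libraries. These values are descriptions. The genes nearest to Prdx1 were Psma1 (0.0971) and Psma6 (0.0978), subunits of the proteasome, and the spread of Prdx1 itself was 0.479. Nearest to Prdx3 were Prps1 (0.0842) and Apoo-ps (0.0956), to Prdx2 Gnb2 (0.0865) and Hagh (0.0871), and to Prdx4 Gstm5 (0.161) and Ech1 (0.164). The gene nearest to Sod1 was Park7 (0.0589), and Park7 was also the second nearest to Prdx5 (0.0724) after Cox5a (0.0679). Gpx4 lay nearest to Atp5h (0.0676), Gpx1 to Maf1 (0.0674), Prdx6 to Psenen (0.0698) and Sod2 to Atpaf1 (0.0735). Among the 10 genes the closest pair was Prdx5 and Sod1 (0.0757) and the farthest Prdx1 and Prdx6 (0.548).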

How the data were processed

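The authors deposited 1 table that holds a log2 value for each of 12596 genes in each of 22 libraries, made with STAR and featureCounts on mm10 per the submitters' processing notes. Versions, annotation, filter and normalization method are not given in the sources used here, and the libraries were made by a service company per the labels. Back-transformed, 100% of the deposited log2 values came out as whole reads within 0.05 of a read, above a pseudocount of 0.108 CPM (2 reads on average), which gave the depth. Reads have no molecular identifiers.

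The log2 values were fitted with limma 3.58.1 in R 4.3.3 (lmFit, eBayes with a mean-variance trend) in 5 comparisons, each on its own libraries, with Benjamini-Hochberg adjustment over all genes. The fit was tested on simulated data. Since the file holds log2 values, the count-based alternative was voom. Other alternatives were scalings, a pseudocount of 5 CPM, a filter that keeps 75% of genes by mean level, covariates, length and GC trend removal (loess, span 0.4; 98.3% of genes), a replicate block and leaving out each animal. IP and input libraries pair by the animal number in the titles, and their deviations from group means correlated at 0.448 on average (0.279 to 0.626; -0.04 between other animals). The length for CPM per kilobase was chosen anew with all exons after seeing the data, and so were the score relations, by permutation with 2-sided p. Further genes are named by rule, at most 4 rises and 4 falls past the threshold per comparison, in order of size. The members and lists were chosen with earlier results of these data known.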

Additional observations from a re-analysis of the deposited data

Results flagged for a closer look

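The level of Prdx4 in 1 EYFP input library, Pre_512, was 3.81 log2 CPM, set apart from the other 5 libraries of its group, of which the nearest had 4.06. The gap was 0.664 of the group's range, over Dixon's 95% limit for 6 libraries. In 40 groups tested, chance alone gives about 2 such gaps, and 1 was found. Without the animal of Pre_512 the log2 change of Prdx4 between IP and input in EYFP animals still passed.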

How the results depend on the processing

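The number of the 10 genes past the threshold between IP and input was 5 in EYFP and 4 in hTyr animals, 7 and 6 with the length and GC trend removed, and 8 and 7 with the replicate block and that removal together. The replicate block alone gave 6, 4 and, for the interaction, 0 genes, and beside Prdx5 in EYFP animals it changed no call of the 10 genes. Over all 12596 genes, 7123 passed in EYFP and 6853 in hTyr animals in the main fit. With the length and GC trend removed, 3310 of 12382 genes passed as higher and 3681 as lower in EYFP animals. In hTyr animals 3155 and 3363 did. All-gene counts with the replicate block are not given here for IP against input, so these counts of the 10 genes are descriptions only. Of 140 alternative values of Prdx1 to Prdx4 between IP and input, 137 kept their call, and the exceptions, for Prdx2 in hTyr animals, are given above. The 680 alternative values of the comparisons with hTyr gave 0 calls, with a lowest adjusted p of 0.496, and 36 changed sign. Of the main values whose sign changed, the largest in size was 0.13, the interaction of Prdx1. The cause of the sign changes was not tested. With the length and GC trend removed, with or without the replicate block, Gpx1 in EYFP (IP against input) was 0.0064, Gpx4 in hTyr 0.11, and the interaction of Sod1 0.020 and of Sod2 -0.067. The same removal gave 0.018 for Prdx5 (hTyr against EYFP in IP) and -0.018 for Gpx4 (in input). Median centring gave -0.026 for Prdx5 and -0.048 for Sod1 in hTyr (IP against input), 0.0030 for Prdx2 (hTyr against EYFP in IP) and 0.0050 for Prdx4 (in input). Quantile normalization gave -0.0042 for Sod1 in IP and 0.0077 for Prdx4 in input. The noradrenergic score as a covariate gave 0.012 for Prdx5 and -0.00062 for Sod1 in IP. Leaving out each animal gave, for IP against input in hTyr, -0.049 to 0.13 for Prdx5, -0.058 to 0.13 for Sod1 and -0.13 to 0.048 for Gpx4. For hTyr against EYFP in IP it gave -0.049 to 0.044 for Sod1, -0.044 to 0.030 for Prdx2, -0.060 to 0.0052 for Prdx5, -0.060 to 0.020 for Prdx6 and -0.014 to 0.20 for Prdx4. In input it gave -0.012 to 0.14 for Prdx2, -0.072 to 0.032 for Prdx4, -0.045 to 0.059 for Sod2, -0.0055 to 0.078 for Gpx4, -0.0011 to 0.14 for Sod1 and -0.014 to 0.058 for Prdx6. For the interaction it gave -0.011 to 0.19 for Prdx1, -0.046 to 0.21 for Prdx4 and -0.15 to 0.046 for Sod1. Over all genes, 7 passed between hTyr and EYFP in IP, 14 with a spread shared over all libraries, 0 with total reads as a covariate and 3 to 11 without single animals. Total reads as a covariate lowered IP against input in hTyr animals from 6853 to 3817 genes and from 25 to 14 of the 51 related genes. Depth nearly follows fraction in hTyr animals, as given for Prdx2, so that fit can hardly separate them. The interaction had 1 gene, 5 with the replicate block. Median centring moved the median of all genes in IP against input from -0.04 to -0.10 in hTyr animals and left 3018 genes higher and 4170 lower there, against 3454 and 3399. Counting error bears most on Prdx4, with as few as 244 reads in a library, and the number of animals limits the precision of all values.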
